A study of Mus musculus with 3 samples.

Results

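The kainate receptor genes Grik1, Grik2, Grik3, Grik4 and Grik5 and the auxiliary subunit genes Neto1 and Neto2 were examined in RNA-seq gene counts of cultured mouse cortical neurons. These 7 genes were picked by name from the 54232 genes in the files, and all 7 passed the expression filter of 1 CPM, a count scaled to the size of its library, in at least 1 library. Each of the 3 groups has 1 library, of wildtype cortical neurons from CD1 mice, an outbred strain. In the IKVAV PA + PEDOT-S group the neurons were given a peptide amphiphile, named for the laminin-derived peptide IKVAV, with a component called PS2 in the title and PEDOT-S_OH in the library name. Both names are read here as PEDOT-S, which is a conducting polymer with sulfonate groups. The IKVAV PA group had the peptide amphiphile without it, and the library labelled PDL, an abbreviation that the labels leave unexplained, is the control. The treatment field names a peptide amphiphile for all 3 libraries, the control included, so groups were read from titles and library names. The labels give neither the age of the cultures nor the number of animals behind a library. The study asks whether such scaffolds promote neuronal maturation.

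Total counts were 79057998 for IKVAV PA + PEDOT-S, 124425958 for IKVAV PA and 78993105 for the PDL control. Since each group has a single library, differences have no replicate check, and neither tests nor p-values are reported. Each ratio below carries a 95% counting interval, which covers counting error only and describes the libraries, not the conditions. In RNA from a whole culture, fewer cells of a type and less RNA per cell cannot be told apart. All 15 listed pan-neuronal markers passed the filter, with summed levels of 16371, 16614 and 16092 normalised CPM in the IKVAV PA + PEDOT-S, IKVAV PA and PDL control libraries. Of 10 microglia markers 8 were below the filter, with at most 0.389 CPM. Dividing cell markers summed to 52.4, 54.5 and 158 CPM in the same order of libraries.

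Kainate receptors are glutamate-gated cation channels built as tetramers. GluK1, GluK2 and GluK3, encoded by Grik1, Grik2 and Grik3, bind kainate with lower affinity and can form channels by themselves. GluK4 and GluK5, encoded by Grik4 and Grik5, bind kainate with high affinity and reach the cell surface only together with a subunit of the other kind. Neto1 and Neto2 are single-pass membrane proteins with CUB domains that bind the receptor and alter its gating and location. In the cortex kainate receptors act on both sides of the synapse and regulate glutamate and GABA release, and during development they influence growing axons and network activity.

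The subunits share a glutamine codon in the loop that lines the pore. RNA editing recodes this position in GluK1 and GluK2 transcripts, which lowers calcium permeability. The coding sequence around it is shown so that the subunits can be compared at this position. Each window holds 57 bases from GENCODE M21 (GRCm38), 5′ to 3′ on the coding strand, with the glutamine codon in capitals.
Grik1: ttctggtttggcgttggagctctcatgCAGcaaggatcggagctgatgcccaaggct
Grik2: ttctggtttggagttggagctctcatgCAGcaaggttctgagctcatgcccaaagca
Grik3: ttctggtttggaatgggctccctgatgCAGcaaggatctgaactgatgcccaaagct
Grik4: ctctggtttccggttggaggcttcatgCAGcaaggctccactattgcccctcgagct
Grik5: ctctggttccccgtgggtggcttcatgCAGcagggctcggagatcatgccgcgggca

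The capitalised codon is number 636 of the longest Grik1 coding sequence, 621 of Grik2, 623 of Grik3, 606 of Grik4 and 605 of Grik5. The Grik4 window lies in a single exon at chr9:42547596-42547652 on the minus strand, and the Grik5 window in a single exon at chr7:25022470-25022526, also on the minus strand. In Grik1 (chr16:87936093-87940571, minus strand), Grik2 (chr10:49240774-49244358, minus strand) and Grik3 (chr4:125691180-125693984, plus strand) an intron falls inside the window. All 5 genes carry the CAG codon. The Grik1 and Grik2 windows differ at 6 bases, the Grik1 and Grik3 windows at 10, and the Grik4 and Grik5 windows at 16, whereas Grik3 and Grik4 differ at 24. Over the aligned coding bases, Grik1 and Grik2 were 72.7% identical and Grik4 and Grik5 72.3%, against 59.6% for Grik2 and Grik5. The longest stretch that any pair of coding sequences had in common was 38 bases, between Grik3 and Grik5. The counts cannot show whether the codon was edited.

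The genes lie on 7 different chromosomes and differ widely in span. Grik2 covers 694 kb (chr10:49094833-49788766, minus strand) with 13246 exonic bases, while Grik5 covers 62.5 kb (chr7:25009849-25072346, minus strand) with 5168. Grik1 (chr16:87895900-88290265, minus strand) spans 394 kb, Grik4 (chr9:42518135-42944493, minus strand) 426 kb and Grik3 (chr4:125490700-125714173, plus strand) 223 kb. Neto1 (chr18:86394952-86506718, plus strand) spans 112 kb and Neto2 (chr8:85636588-85700924, minus strand) 64.3 kb. At most 2.62% of the exonic bases of any of these genes, the value of Neto1, are shared with another gene, so overlapping exons bear little on these counts. RefSeq promoter sequences (GRCm38.p6, 300 bases around the start) were analysed for Grik2, Grik3, Grik4, Grik5 and Neto2. Promoters of Grik1 and Neto1 were not analysed. Among the promoters analysed, that of Grik3 was richest in CpG with 50, a number reached by 0.855% of 32851 promoters. Grik4 followed with 42, the upstream Neto2 start with 36, Grik2 with 26 and Grik5 with 10. The other Neto2 start had 0. The median promoter had 7.

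Grik5 and Neto2 were the most abundant of the 7 genes per exon length in every library, and Grik4 was the least abundant. Grik5 stood at 44.3, 44.6 and 39.8 CPM per kb of exon in the IKVAV PA + PEDOT-S, IKVAV PA and PDL control libraries. Neto2 stood at 43.3, 38.6 and 42.7 CPM per kb in the same order. Which of them came first depended on the length used, since per length of the longest transcript Grik5 led in all 3 libraries and per coding length Neto2 did. Grik4 stood at 2.16, 2.05 and 1.75 CPM per kb. Between these lay Grik3 at 12.7, 12.3 and 12.03, Neto1 at 9.61, 8.67 and 9.04, Grik2 at 7.89, 9.33 and 8.16, and Grik1 at 5.48, 6.88 and 7.40 CPM per kb. The order of these middle genes depended on it too, and per length of the longest transcript Grik1 stood above Grik3 and Grik2 in the PDL control library, at 13.6 CPM per kb. As CPM without length, Grik5 and Neto2 lay between the 92.2 and 94.6 percentiles of the 13884 genes compared, and Grik4 between the 33.4 and 37.9 percentiles.

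**Figure D1:**
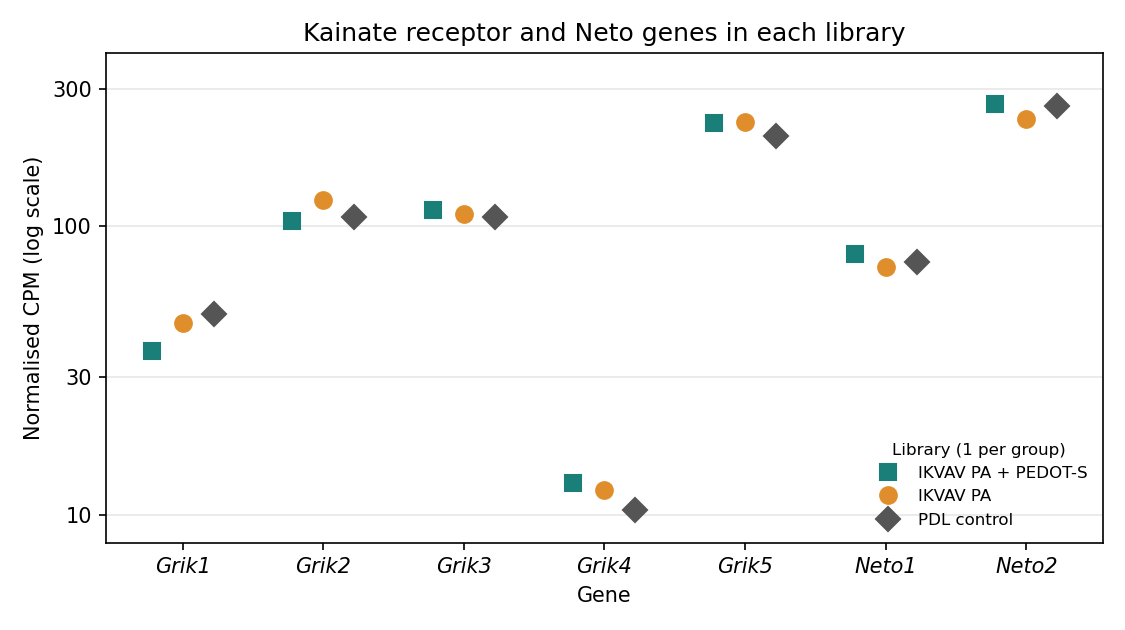
Normalised CPM on a log axis of the 7 genes in the IKVAV PA + PEDOT-S (squares), IKVAV PA (circles) and PDL control (diamonds) libraries, with 1 library per group and so no error bars. For each gene the 3 points lie close together, with the widest spread for Grik1, at 36.9, 46.2 and 49.8 CPM. CPM values compare libraries within a gene and not genes with each other, because they are not divided by length.

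No kainate receptor or Neto gene differed by more than 1.5-fold beyond counting error in any of the 3 comparisons. Over all compared genes, 4.21% passed this bound in either direction in IKVAV PA + PEDOT-S against the PDL control, 3.96% in IKVAV PA against the PDL control, and 2.35% in IKVAV PA + PEDOT-S against IKVAV PA. Each library enters 2 of the 3 comparisons, so these are not independent of each other. A count of 0 among 7 genes is therefore near what the whole set of genes shows. The median log2 ratio of the 7 genes was 0.08, 0.04 and 0.04 in the same order of comparisons, against 0.00, 0.00 and 0.01 over all compared genes. The 7 ratios spanned -0.43 to 0.31, -0.14 to 0.23 and -0.33 to 0.16 on the log2 scale.

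**Figure D2:**
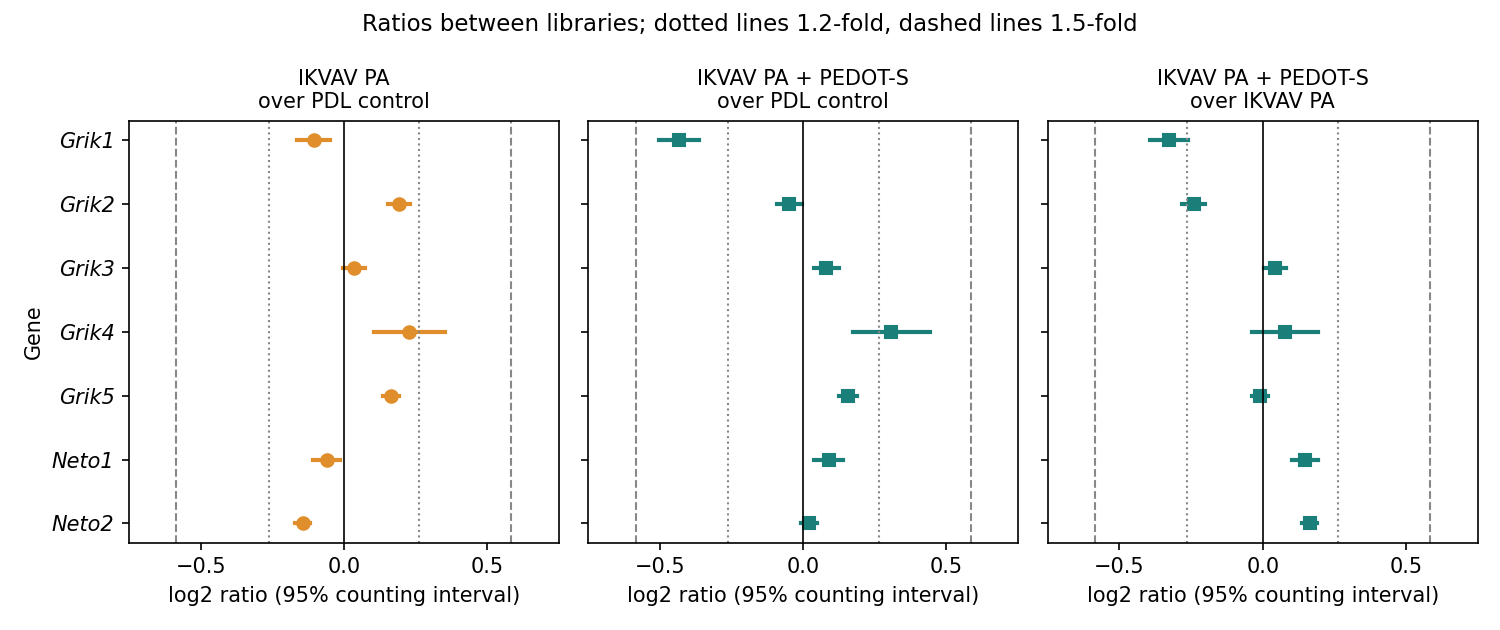
Log2 ratios (points) with 95% counting intervals (bars) of the 7 genes in the 3 comparisons between libraries, with dotted lines at 1.2-fold and dashed lines at 1.5-fold. No interval reaches the dashed lines, and the interval of Grik1 in IKVAV PA + PEDOT-S over the PDL control (-0.50 to -0.36) is the only 1 that lies wholly beyond a dotted line.

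Of the subunits that form channels by themselves, Grik1 showed the widest spread between libraries. Grik1 had 2885 counts (36.9 CPM) in the IKVAV PA + PEDOT-S library, 5763 counts (46.2 CPM) in the IKVAV PA library and 3963 counts (49.8 CPM) in the PDL control library. Its level was thus lowest with PEDOT-S and closer together in the others. The IKVAV PA + PEDOT-S level was 1.35-fold below that of the PDL control (log2 ratio -0.43, interval -0.50 to -0.36), and 11.96% of compared genes had a larger absolute ratio. This was the only one of the 7 genes past 1.2-fold in any comparison. Of all compared genes, 10.4% passed that bound in either direction in IKVAV PA + PEDOT-S against the PDL control, 9.77% in IKVAV PA against the PDL control and 8.57% between the scaffolds. In IKVAV PA against the PDL control its log2 ratio was -0.11 (interval -0.16 to -0.05), and in IKVAV PA + PEDOT-S against IKVAV PA it was -0.33 (-0.39 to -0.26), with the interval just short of 1.2-fold on its near side.

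Grik2, the subunit long linked to mossy fibre transmission in the hippocampus, had 104.5, 124 and 108 CPM in the IKVAV PA + PEDOT-S, IKVAV PA and PDL control libraries, from 8182, 15400 and 8609 counts. Here the IKVAV PA library was the high one and the remaining pair lay within 1.03-fold of each other. The log2 ratio was 0.19 (interval 0.16 to 0.23) in IKVAV PA against the PDL control and -0.24 (-0.28 to -0.20) in IKVAV PA + PEDOT-S against IKVAV PA. In IKVAV PA + PEDOT-S over the PDL control it was -0.05 (-0.09 to -0.00). Grik3, whose product needs high glutamate concentrations to open, was the steadiest of the 7 genes. It had 114, 111 and 108 CPM in the same order, and its highest and lowest libraries differed by 1.06-fold. Its log2 ratio was 0.08 (0.04 to 0.12) in IKVAV PA + PEDOT-S against the PDL control, 0.04 (-0.00 to 0.08) in IKVAV PA against the PDL control and 0.04 (0.01 to 0.08) between the scaffolds. Whether these intervals left out a ratio of 1 depended on the scaling, as with libraries scaled to pan-neuronal genes the first was -0.01 to 0.08 and the last -0.02 to 0.05.

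The high-affinity subunits Grik5 and Grik4 were both somewhat higher in the scaffold libraries than in the PDL control. Grik5 had 229, 231 and 206 CPM in the IKVAV PA + PEDOT-S, IKVAV PA and PDL control libraries, from 17938, 28740 and 16372 counts. The scaffold libraries were alike and the PDL control library was the low one. The log2 ratio against the PDL control was 0.16 in IKVAV PA + PEDOT-S (interval 0.13 to 0.19) and 0.17 in IKVAV PA (0.14 to 0.19), and that between the scaffolds was -0.01 (-0.04 to 0.02). Grik4 had 12.9, 12.2 and 10.4 CPM, from only 1008, 1520 and 829 counts, which leaves the widest intervals of the 7 genes. Its log2 ratio against the PDL control was 0.31 (0.17 to 0.44) in IKVAV PA + PEDOT-S and 0.23 (0.11 to 0.35) in IKVAV PA. Between the scaffolds it was 0.08 (-0.04 to 0.19), which counting error alone could give.

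The auxiliary subunits Neto2 and Neto1 had their lowest level in the IKVAV PA library. Neto2 had 265, 237 and 262 CPM in the IKVAV PA + PEDOT-S, IKVAV PA and PDL control libraries, from 20770, 29510 and 20845 counts. Its log2 ratio was 0.16 (interval 0.14 to 0.19) in IKVAV PA + PEDOT-S against IKVAV PA and -0.14 (-0.17 to -0.12) in IKVAV PA against the PDL control. In IKVAV PA + PEDOT-S against the PDL control it was 0.02 (-0.01 to 0.05), with a sign that flipped when libraries were scaled to total counts or to pan-neuronal genes. Neto1 had 80.2, 72.4 and 75.5 CPM, with log2 ratios of 0.15 (0.10 to 0.19) between the scaffolds, 0.09 (0.04 to 0.14) in IKVAV PA + PEDOT-S against the PDL control and -0.06 (-0.11 to -0.01) in IKVAV PA against the PDL control. Scaled to pan-neuronal genes, the interval in IKVAV PA + PEDOT-S against the PDL control took in a ratio of 1 (-0.01 to 0.09).

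Small as these ratios are, most intervals left out a ratio of 1. They did so for 6 of 7 genes in IKVAV PA + PEDOT-S against the PDL control, 6 of 7 in IKVAV PA against the PDL control and 5 of 7 in IKVAV PA + PEDOT-S against IKVAV PA. Over all compared genes the shares were 57.1%, 57.0% and 59.9%, so at these depths an interval that leaves out 1 is common. Whether ratios of this size exceed the differences between cultures of the same kind cannot be told from single libraries.

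Shares of subunits inside a library do not depend on how the libraries were scaled. Grik1 made up 26.1% of the Grik1 and Grik2 counts in the IKVAV PA + PEDOT-S library (exact binomial 95% interval 25.3% to 26.9%), 27.2% in the IKVAV PA library (26.6% to 27.8%) and 31.5% in the PDL control library (30.7% to 32.3%). Relative to Grik2, Grik1 was therefore lower in both scaffold libraries than in the PDL control, although its own level in the IKVAV PA library lay close to the control. The difference in log2 count ratio was -0.38 (interval -0.47 to -0.30) in IKVAV PA + PEDOT-S against the PDL control and -0.30 (-0.37 to -0.23) in IKVAV PA against the PDL control. Relative to Grik5, Grik1 differed by -0.59 (-0.67 to -0.51) and -0.27 (-0.34 to -0.21) in the same comparisons, the first being the widest gap among the 7 pairs of genes examined. Grik3 made up 52.2%, 47.3% and 49.97% of the Grik3 and Grik2 counts in the IKVAV PA + PEDOT-S, IKVAV PA and PDL control libraries. Grik4 made up 5.32%, 5.02% and 4.82% of the Grik4 and Grik5 counts, and the difference in log2 count ratio was 0.15 (0.01 to 0.29) in IKVAV PA + PEDOT-S against the PDL control. Neto1 made up 23.2%, 23.4% and 22.4% of the Neto counts.

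Per exon length, Grik5 alone accounted for 61.1%, 59.3% and 57.5% of the summed Grik1 to Grik5 signal in the IKVAV PA + PEDOT-S, IKVAV PA and PDL control libraries, and Grik1 for 7.55%, 9.15% and 10.7%. Per coding length Grik5 was still the highest Grik gene, at 78.0, 78.5 and 70.0 CPM per kb, but not the larger part of the sum. There Grik2 stood at 38.4, 45.4 and 39.7 and Grik3 at 41.4, 40.2 and 39.2 CPM per kb, in the same order of libraries. The log2 ratio of the high-affinity to the low-affinity subunits was 0.83, 0.71 and 0.59 in that order. It was higher than in the PDL control by 0.24 (counting interval 0.20 to 0.29) in IKVAV PA + PEDOT-S and by 0.12 (0.08 to 0.16) in IKVAV PA. Over all the settings tried the differences kept their sign (0.22 to 0.29 and 0.09 to 0.13), although the level of the ratio itself turned negative per coding length. The log2 ratio of the Neto genes to the Grik genes was -0.46, -0.67 and -0.42, which was 0.21 (0.18 to 0.24) higher in IKVAV PA + PEDOT-S than in IKVAV PA and 0.25 lower in IKVAV PA than in the PDL control (difference -0.25, interval -0.28 to -0.22). No replicate shows how far such proportions vary between cultures of the same kind.

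**Figure D3:**
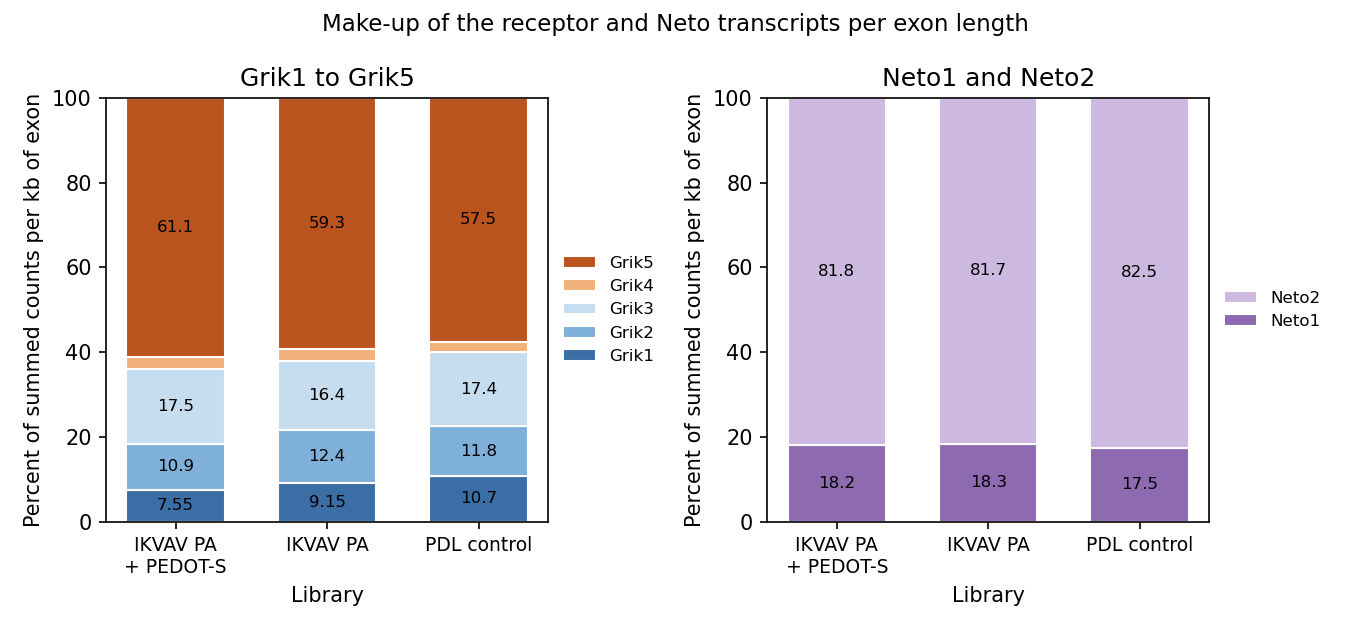
Percent of summed counts per kb of exon contributed by each of Grik1 to Grik5 (left) and by Neto1 and Neto2 (right) in the IKVAV PA + PEDOT-S, IKVAV PA and PDL control libraries. Grik5 takes 61.1%, 59.3% and 57.5% and Grik1 7.55%, 9.15% and 10.7%, while the Neto bars are nearly alike, with Neto2 at 81.8%, 81.7% and 82.5%. Grik4, drawn without a printed value, takes 2.98%, 2.72% and 2.53%.

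Set among all ionotropic glutamate receptor genes, the kainate subunits made up 28.5%, 28.0% and 26.6% of the summed CPM per kb in the IKVAV PA + PEDOT-S, IKVAV PA and PDL control libraries. The AMPA subunits, which carry most fast excitatory transmission, made up 43.7%, 43.8% and 45.5%, the NMDA subunits 23.5%, 23.9% and 23.8%, and the delta receptors the rest. These shares used exon length alone, and the place of the kainate above the NMDA subunits depended on it. As CPM without length, the NMDA genes summed to 1121, 1224 and 1171 in the same order of libraries. The low-affinity kainate subunits summed to 256, 281 and 266 CPM and the high-affinity ones to 242, 243 and 216 CPM. None of the 4 AMPA genes, of the 5 measured NMDA genes out of 7 or of the 7 measured metabotropic receptor genes out of 8 passed 1.5-fold in any comparison. Their median log2 ratios lay between -0.05 and 0.07. Gria2, the AMPA subunit that makes channels impermeable to calcium, had 550, 624 and 601 CPM in the 3 libraries, and Grin2b, an NMDA subunit of immature neurons, had 846, 950.5 and 895 CPM. Both were highest in the IKVAV PA library, as Grik2 was, but the other AMPA and NMDA genes measured were not. Gria1, with 339, 353 and 363 CPM, and Grin1, the obligatory NMDA subunit, with 151, 162 and 163 CPM, were highest in the PDL control library. Gria3, Gria4, Grin2a, Grin2d and Grin3a were highest in the IKVAV PA + PEDOT-S library.

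The AMPA receptor auxiliary genes, the counterparts of Neto1 and Neto2, had list medians of 0.13 in IKVAV PA + PEDOT-S and 0.10 in IKVAV PA against the PDL control, and -0.01 between the scaffolds. No member of this list of 12 passed 1.5-fold. Cnih2, a cornichon protein that slows AMPA receptor closing, had 272, 274 and 214 CPM in the IKVAV PA + PEDOT-S, IKVAV PA and PDL control libraries. Its log2 ratio against the PDL control was 0.35 (interval 0.32 to 0.38) in IKVAV PA + PEDOT-S and 0.36 (0.33 to 0.38) in IKVAV PA. Shisa7 had 161, 209 and 172 CPM, highest in the IKVAV PA library.

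Genes for proteins that bind, anchor or move kainate receptors had list medians near no difference, although single genes spread about as widely as the receptor genes. All 23 of these genes that were analysed passed the filter, none passed 1.5-fold in any comparison, and the list medians were -0.01, -0.05 and 0.04 in IKVAV PA + PEDOT-S against the PDL control, IKVAV PA against the PDL control and IKVAV PA + PEDOT-S against IKVAV PA. Their ratios spanned -0.27 to 0.24, -0.38 to 0.24 and -0.31 to 0.41 in the same order of comparisons. The widest were those of C1ql3, -0.38 (-0.53 to -0.23) in IKVAV PA against the PDL control and 0.41 (0.26 to 0.56) between the scaffolds. In C1ql3 64.2% of exonic bases are shared with another gene. Dlg4, the scaffold PSD-95, had 452, 470 and 498 CPM in the IKVAV PA + PEDOT-S, IKVAV PA and PDL control libraries. Dlg2 had 453, 471 and 456 CPM, Ctnnb1, beta-catenin, which links cadherins to the cytoskeleton, 435, 406 and 413 CPM, and Ywhag, a 14-3-3 protein, 1846, 1901 and 1882 CPM. In Ctnnb1 15.1% of exonic bases are shared with another gene. Among the editing enzymes, Adarb1 (ADAR2), which edits glutamate receptor transcripts, had 108, 122 and 111 CPM. Adarb2, a relative without known editing activity, had 69.3, 79.2 and 88.7 CPM and a log2 ratio of -0.36 (-0.41 to -0.30) in IKVAV PA + PEDOT-S against the PDL control. Adar had 200.1, 182 and 179 CPM, with 16.8% of its exonic bases shared.

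Markers of cell types differed between these libraries as well. Grik1 is known to be prominent in cortical interneurons. Of 14 measured GABA interneuron markers none passed 1.5-fold, and their medians were 0.03, -0.10 and 0.12 in IKVAV PA + PEDOT-S against the PDL control, IKVAV PA against the PDL control and IKVAV PA + PEDOT-S against IKVAV PA. Gad1, a GABA-synthesising enzyme, had 272, 291 and 342 CPM in the IKVAV PA + PEDOT-S, IKVAV PA and PDL control libraries. It was lowest with PEDOT-S, as Grik1 was, whereas Sst, the neuropeptide somatostatin, was highest there (199.8, 146 and 164 CPM). Reln, reelin, had 496, 499.8 and 526 CPM. Excitatory neuron markers had medians of 0.17, 0.10 and 0.06 over 11 genes, with none past 1.5-fold. Neurod2 and Neurod6, transcription factors of excitatory neurons, had 265, 236 and 203 CPM and 379, 357 and 320 CPM. The widest ratio of the list went the other way. Camk2a, a kinase of excitatory synapses, had 133, 184 and 189 CPM, with a log2 ratio of -0.50 (-0.54 to -0.47) in IKVAV PA + PEDOT-S against the PDL control, and was lowest with PEDOT-S, as Grik1 was. Slc17a7 had 65.3, 77.4 and 67.5 CPM. Whether the makeup of neurons had a part in the Grik1 values was not tested.

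Many markers of dividing cells and of cells that are not neurons differed far more between libraries than the receptor genes did. All 10 dividing cell markers were past 1.5-fold in the lower direction in both scaffold libraries against the PDL control, where 3.76% (IKVAV PA + PEDOT-S) and 3.42% (IKVAV PA) of all compared genes were, and none was between the scaffolds (2.02%). Past this bound in the higher direction were 0.447% of compared genes in IKVAV PA + PEDOT-S, 0.540% in IKVAV PA and 0.331% between the scaffolds. Mki67, a protein of dividing cells, had 12.6, 12.7 and 42.1 CPM in the IKVAV PA + PEDOT-S, IKVAV PA and PDL control libraries. Of 8 measured astrocyte markers 4 were lower and 1 was higher in IKVAV PA + PEDOT-S and 6 were lower in IKVAV PA, with summed levels of 240, 228 and 376 CPM. S100b and Gjb6 were below the filter, and Gjb6 was at 0 in all 3 libraries. The higher astrocyte marker was Gfap, at 1.39, 0.497 and 0.402 CPM, so it passed the filter only through the library where it was high. Aqp4, among those lower in IKVAV PA, had 0.996, 0.538 and 1.29 CPM and passed only through the PDL control library. All 7 measured fibroblast and mural cell markers were lower in IKVAV PA + PEDOT-S and 4 in IKVAV PA (26.9, 58.9 and 143 CPM summed), with Lum, Tagln and Vtn below the filter. Oligodendrocyte lineage markers went both ways, 4 higher and 4 lower of 10 in IKVAV PA + PEDOT-S and 2 higher and 4 lower in IKVAV PA (103, 80.1 and 109 CPM summed). In IKVAV PA + PEDOT-S against IKVAV PA, the astrocyte markers Gfap and Aldoc were past 1.5-fold higher and the fibroblast and mural markers Col1a1, Acta2 and Rgs5 lower. Of the oligodendrocyte lineage markers, Mbp, Mag and Mobp were higher there and Pdgfra and Cspg4 lower. The part of these cells in the kainate receptor values was not tested.

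**Figure D4:**
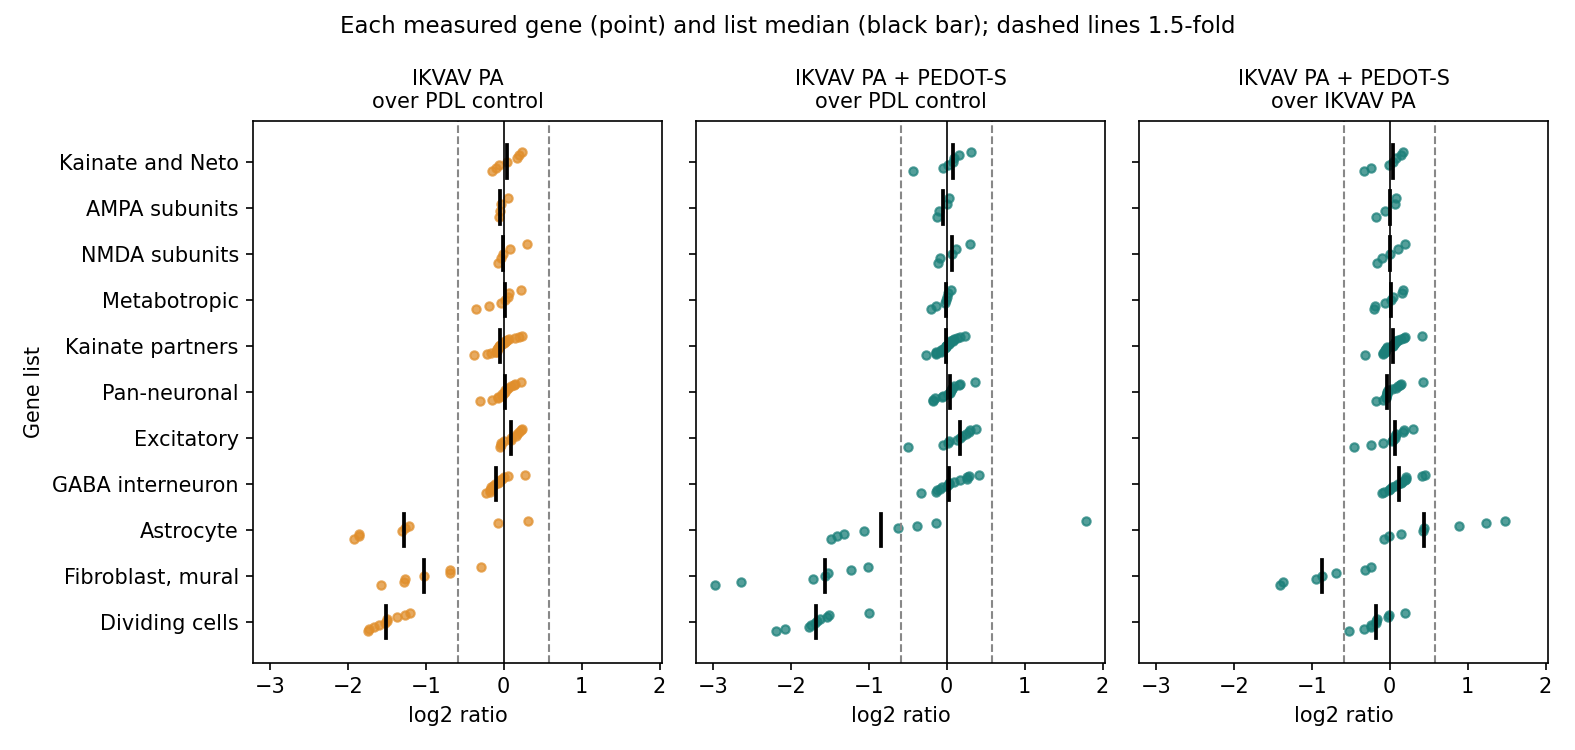
Log2 ratios of every measured gene (points) and list medians (black bars) for glutamate receptor families, kainate receptor partners and cell type markers in the 3 comparisons, with dashed lines at 1.5-fold. All points of the receptor, partner and neuronal lists lie inside the dashed lines, while the dividing cell markers have medians of -1.68 in IKVAV PA + PEDOT-S and -1.52 in IKVAV PA against the PDL control.

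Gene models beside the receptor genes were read for signal that could belong to them. C130030K03Rik, annotated as a processed pseudogene, lies 104 bases beyond the 3′ end of Grik2 on the same strand (chr10:49094006-49094729), and RefSeq lists its name as a synonym of Grik2. It had 228, 475 and 183 counts in the IKVAV PA + PEDOT-S, IKVAV PA and PDL control libraries, or 2.91, 3.81 and 2.30 CPM, and was highest in the IKVAV PA library, as Grik2 was. Its log2 ratio was 0.73 (interval 0.48 to 0.98) in IKVAV PA against the PDL control, 0.34 (0.06 to 0.63) in IKVAV PA + PEDOT-S against the PDL control and -0.39 (-0.62 to -0.16) between the scaffolds. Its lowest library was the PDL control, whereas that of Grik2 was IKVAV PA + PEDOT-S. The 6 gene models inside Grik2 together held 18, 43 and 33 counts, so little signal was assigned to them. Zfp574 starts 221 bases from the Grik5 gene on the opposite strand and had 53.0, 53.0 and 47.6 CPM, with log2 ratios against the PDL control of 0.16 (0.09 to 0.22) in IKVAV PA + PEDOT-S and 0.16 (0.10 to 0.21) in IKVAV PA, next to 0.16 and 0.17 for Grik5.

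Likeness of pattern was measured as the distance between pairs of log2 ratios against the PDL control, over 3 libraries and among protein-coding genes of similar level. Nearest to Grik1 were Syne1 (distance 0.02), Col4a2 (0.03) and Myo5b (0.04), and only 13 of 4205 genes lay within 0.1 of it. Nearest to Grik2 were Slc17a7, the vesicular glutamate transporter VGLUT1, Mical3 and Rbm33, each at a distance of 0.01, with 150 of 3179 genes within 0.1. Grik4 had 75 of 3173 genes within that distance, led by Wtip, Hs1bp3 and Arl4d, and Grik5 had 216 of 1980, led by Kdm6b, Opcml and Samd14. Grik3 (Hdac3, Lats1 and Gna11 nearest) shared its pattern with 36.6% of the genes compared with it, Neto1 (Srsf12, Foxn3 and Rpl28) with 27.9% and Neto2 (Sh3bgrl, Bex2 and Eprs) with 14.6%. With 3 libraries, such likeness is only a description.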

How the data were processed

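The deposited files hold raw counts per Ensembl gene for 3 libraries, per the file headers. The submitters' processing notes name HTSeq 2.0.2, STAR 2.7.5, DESeq2 1.14.1 and cutadapt 4.2, in no stated role, and build mm10. Annotation release, strand setting and read length: not given in the sources used here. Per the labels' protocols libraries were made with a total RNA kit, whereas the molecule field reads polyA RNA. Gene symbols and exon coordinates were read from GENCODE M21 on GRCm38, where a match was found for 54079 of 54232 identifiers. Libraries were scaled with TMM factors (0.990 for IKVAV PA + PEDOT-S, 1.00 for IKVAV PA, 1.01 for the PDL control) from edgeR 4.0.16 in R 4.3.3, over 13884 genes with at least 1 CPM in at least 1 library. Normalised CPM are counts over the scaled library size. Ratios carry exact (Clopper-Pearson) binomial 95% intervals of the first count given the sum of both. These cover counting error only, as reads lacking molecular identifiers need not be separate molecules. A gene was past a fold when its near bound lay beyond it. Lengths are unions of exons. Intervals of composition ratios use a normal approximation to Poisson error. The calculation was tested on simulated counts with counting error alone, which is what the intervals assume. That test cannot show how cultures vary.

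The members and gene lists were chosen with earlier results of these data known. The genes to name were all 7 members and, from every other list, those past 1.5-fold and the 4 with the highest mean CPM, of which the text gives those that stand beside a result. Camk2a, C1ql3, C130030K03Rik, Zfp574 and the place of Slc17a7 among the markers were chosen after their values were seen. For likeness, the 3 nearest protein-coding genes with a mean CPM of at least 5 and of 0.5 to 2 times that of the gene were named. Klhl17, a listed partner, was not analysed here.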

Additional observations from a re-analysis of the deposited data

How the results depend on the processing

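The alternatives tried were scaling by total counts or by DESeq2 1.42.0 size factors, a scaling that sets the median of pan-neuronal genes to 0, thinning to 78993105 counts, a prior count of 2, other filters and folds, and other gene lengths. Of 105 member ratios recomputed in this way 99 stayed within their counting interval, and the other 6, all under the pan-neuronal scaling, moved beyond it. Under that scaling 2 rather than 4 genes had intervals above a ratio of 1 in IKVAV PA + PEDOT-S against the PDL control, as Grik3 and Neto1 lost theirs, and the interval of Neto2 lay below it. Between the scaffolds, Grik3 lost its interval above 1 under pan-neuronal scaling and under total counts (-0.01 to 0.07), and Grik5 lay below 1 under the first. DESeq2 size factors gave 4 rather than 3 genes above 1 in IKVAV PA against the PDL control, with Grik3 added. With a 1.2-fold bound 1 gene was lower in IKVAV PA + PEDOT-S against the PDL control, Grik1. Per longest transcript the log2 ratio of high- to low-affinity subunits was 0.79, 0.63 and 0.50 in the IKVAV PA + PEDOT-S, IKVAV PA and PDL control libraries and that of Neto to Grik genes -0.70, -0.93 and -0.68, with differences of the first of 0.29 in IKVAV PA + PEDOT-S against the PDL control and 0.16 against IKVAV PA. Per coding length both turned their sign in every library, to -0.17, -0.30 and -0.39 and to 0.26, 0.027 and 0.27; coding length leaves out untranslated exons, which the counts include. No paired analysis was possible because each group has 1 library and all carry the repeat number 3. Replicates could not be left out for the same reason.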
